A study of Mus musculus with 2 samples.

Results

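Mir335, Mir675, Mir483, Mir296 and Mir298 are the 5 miRNA genes taken here as imprinted genes outside the Dlk1-Dio3 locus, out of 1973 miRNA genes counted. They were chosen by their place in known imprinted domains and not by a rule on their values, although earlier results of these data were known. Each was found in the count tables by its gene identifier. Their levels were measured by microRNA sequencing in embryonic facial prominence, from which face and jaws develop, of B6NCrl mice at embryonic day 15.5. The labels describe a single group of healthy embryos, males and females pooled, and name no treatment or altered allele. Biological replicate 1 pooled 78 embryos and biological replicate 2 pooled 62. Each library is therefore a mixture of many animals and of all cell types of the dissected tissue, so fewer cells of a type and less RNA per cell cannot be told apart.

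Imprinted genes are expressed mainly from 1 parental copy, and many of them act on growth before birth. Mest, whose intron carries Mir335, is expressed from the paternal copy and marks embryonic mesoderm. H19 is a maternally expressed noncoding RNA that is also the precursor of Mir675, and its neighbour Igf2, a paternally expressed fetal growth factor gene, carries Mir483. Mir296 and Mir298 lie beside the complex Gnas locus, which encodes a G protein subunit and several imprinted transcripts. The reads carry no parental label and the labels name 1 strain, so these data give levels and not the parental origin of a miRNA.

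All 5 genes have a hairpin in RefSeq (build GRCm38.p6, the same coordinates as mm10), at the positions that GENCODE gives. The mature miRNAs of both arms are shown because the bases 2 to 8 from the 5′ end, the seed in capitals, decide most target pairing.
miR-335-5p: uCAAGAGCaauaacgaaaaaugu
miR-335-3p: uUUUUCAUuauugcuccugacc
miR-675-5p: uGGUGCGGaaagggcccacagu
miR-675-3p: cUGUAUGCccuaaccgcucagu
miR-483-5p: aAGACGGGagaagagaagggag
miR-483-3p: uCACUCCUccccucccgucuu
miR-296-5p: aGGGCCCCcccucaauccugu
miR-296-3p: gAGGGUUGgguggaggcucucc
miR-298-5p: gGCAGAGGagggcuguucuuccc
miR-298-3p: gAGGAACUagccuucucucagcuu

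None of the 10 seeds is shared between 2 of these genes, and 0 other genes of the RefSeq table, which lists mature miRNAs for 1058 genes, carry any of them. A seed of its own is common: among the detected genes with a mature sequence in that table, both or all listed seeds were unshared for 123 of 297 (41.4%). Bases 2 to 7 alone were shared with 4 other genes, a comparison chosen after the 7-base result was seen. Of these, Mir6986 (partner of miR-335-3p) had 4 reads in replicate 1 and 6 in replicate 2. Mir3110 (partner of miR-483-3p) had 3 and 0 reads, and Mir5621 (partner of miR-296-5p) had 1 and 0. Mir7646 (partner of miR-335-5p) is not among the counted genes. So no counted gene with a matching 6-base stretch had more than 6 reads in a library.

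The deposited counts are per hairpin and do not separate the arms. The 2 hairpins on which the results below turn most, that of the most abundant gene and that of the gene with the largest difference between replicates, show in capitals where both mature miRNAs lie.
Mir335 hairpin: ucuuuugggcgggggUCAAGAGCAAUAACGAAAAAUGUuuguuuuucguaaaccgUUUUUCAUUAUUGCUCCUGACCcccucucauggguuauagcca
Mir483 hairpin: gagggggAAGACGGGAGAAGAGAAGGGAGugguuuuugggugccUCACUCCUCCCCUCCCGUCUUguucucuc

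The G and C content of the hairpin was 42.9% for Mir335, against 53.7% for Mir298, 58.9% for Mir483, 63.1% for Mir675 and 63.3% for Mir296. The median was 50.0% over the 284 detected genes with a RefSeq hairpin, so Mir335 was below it and the other 4 genes above. No stretch of 20 bases in any of the 5 hairpins was found in another annotated miRNA gene, while 75 of the 333 detected genes share such a stretch. Reads that mapped to several places were given to no gene in these files. A read of at least 20 bases from these hairpins thus has no exact match in another annotated miRNA gene.

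The libraries held 2978463 reads on miRNA genes in replicate 1 and 6408008 in replicate 2. Levels are given as CPM, reads per 1000000 miRNA reads after TMM scaling between the libraries, and each mean ± SD is over both libraries. A gene was called detected with at least 10 reads in each library, which 333 of 1973 genes reached, and all 5 imprinted genes were among them. Markers of the labelled tissue were present, with 140261 ± 16606 CPM for 7 epithelial genes, 17328 ± 1070 CPM for 4 mesenchymal genes and 14886 ± 674 CPM for 2 cartilage genes (SD, n = 2). Mir214 supplied 15973 ± 1244 CPM of the mesenchymal sum (SD, n = 2). A stretch of 20 bases is shared with another miRNA gene by 3 of the 4 mesenchymal genes, so that sum may be undercounted. Of markers of other cells, 3 vessel genes stood at 44339 ± 3262 CPM and the 5 counted skeletal muscle genes at 6954 ± 1396 CPM (SD, n = 2). The liver miRNA Mir122 stood at 50.2 ± 28.0 CPM and 3 blood genes at 715 ± 42.8 CPM (SD, n = 2). The 8 brain genes stood at 547 ± 68.5 CPM (SD, n = 2), with 4 at the floor of at most 3 reads in each library. A stretch of 20 bases is shared with another miRNA gene by 7 of these 8, so a low count there does not show absence. The 6 genes listed for pancreas and endocrine cells reached 2252 ± 631 CPM, of which Mir375, also a miRNA of other epithelia, supplied 2183 ± 620 CPM (SD, n = 2), about the level of Mir298.

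Mir335 was by far the most abundant of the 5 genes. Mir335 (ENSMUSG00000065501) lies at chromosome 6, 30741299 to 30741396 on the plus strand, in an intron of all 7 Mest transcripts that span it, out of 11 annotated. It had 120087 reads in replicate 1 and 250946 in replicate 2, or 40178 and 39298 CPM. Its level of 39738 ± 622 CPM (SD, n = 2) placed it at rank 6 of 1973 genes in both libraries. Mir335 alone took 4.03% of miRNA reads in replicate 1 (95% Clopper-Pearson interval 4.01 to 4.05) and 3.92% in replicate 2 (3.90 to 3.93). All such intervals describe counting error alone, because without molecular identifiers several reads can stem from a single molecule. Reads that mapped to several places made up 30.6% of the library in replicate 1 and 29.7% in replicate 2. They were given to no gene, so ranks and shares cover assigned reads only. Genes that share sequence with others may thus be undercounted beside Mir335.

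The genes most like Mir335 in level, by the distance of log2 CPM over both libraries, were Mir322 (31509 ± 1378 CPM), Mir23b (51442 ± 4939 CPM) and Mirlet7g (52439 ± 666 CPM, SD, n = 2). None of these 3 values lay within the SD of Mir335. The counted genes nearest to Mir335 on the chromosome were far less abundant. Mir29a, 321264 bases away on the other strand, stood at 144 ± 28.6 CPM (SD, n = 2), and Mir29b-1 had 3 and 18 reads.

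Mir296 and Mir298 followed, and both lie on the minus strand of chromosome 2. Mir296 (ENSMUSG00000065521, 174267047 to 174267125) and Mir298 (ENSMUSG00000065410, 174267504 to 174267585) are 378 bases apart. In GENCODE they overlap no other gene. Nespas, a noncoding RNA antisense to Gnas, lies on their strand and ends 13651 bases upstream of Mir298 in the annotation. Mir296, a miRNA known from the control of vessel growth, had 9218 and 18539 reads in replicates 1 and 2, or 3084 and 2903 CPM. Its level was 2994 ± 128 CPM (SD, n = 2), at rank 60 of 1973. Mir298 had 6784 and 13445 reads, or 2270 and 2105 CPM, with a level of 2188 ± 116 CPM (SD, n = 2) at rank 73.

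The balance within this pair was nearly the same in both libraries. Mir296 supplied 57.6% of the pair's reads in replicate 1 (95% Clopper-Pearson interval 56.8 to 58.4) and 58.0% in replicate 2 (57.4 to 58.5), and the intervals overlap. Mir296 exceeded Mir298 by 1.36-fold and 1.38-fold. The difference of their mean levels was larger than the SD of either gene. The genes closest in level to Mir296 were Mir15a (2837 ± 1.16 CPM), Mir130b (3033 ± 303 CPM) and Mir181d (2684 ± 22.0 CPM), and those closest to Mir298 were Mir324 (2176 ± 71.7 CPM), Mir361 (2136 ± 7.93 CPM) and Mir872 (2193 ± 131 CPM, all SD, n = 2). The only other counted gene within 500 kb, Gm27591, had 0 reads in both libraries. A count of 0 allows up to 3 reads, or 1.00 CPM in replicate 1 and 0.470 CPM in replicate 2.

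Mir483 and Mir675 lie on the minus strand of chromosome 7, 77776 bases apart, in the Igf2 and H19 domain. Mir483 (ENSMUSG00000070140, 142654924 to 142654996) is in an intron of all 7 Igf2 transcripts that span it, out of 9 annotated, and of the readthrough gene model Gm49394. It had 6215 and 9563 reads, or 2079 CPM in replicate 1 and 1498 CPM in replicate 2. Its mean of 1788 ± 411 CPM (SD, n = 2) gave rank 80 of 1973, from rank 76 in replicate 1 and rank 85 in replicate 2. The spread of Mir483 was 23.0% of its mean, against 1.57% to 5.92% for the other 4 genes. Its mean was below that of Mir298 by less than the SD of Mir483. Within each library Mir298 was the higher of the 2, by 1.09-fold in replicate 1 and 1.41-fold in replicate 2.

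Mir675 was the least abundant of the 5. Mir675 (ENSMUSG00000076275) lies at chromosome 7, 142577064 to 142577147, and overlaps an exon of 3 of the 4 H19 transcripts that span it and an intron of 1. It had 198 reads in replicate 1 and 460 in replicate 2, or 66.2 and 72.0 CPM. Its level of 69.1 ± 4.09 CPM (SD, n = 2) gave rank 216 of 1973, well above the floor of 3 reads. Genes of like level were Mir505 (67.5 ± 4.63 CPM), Mir155 (69.0 ± 9.13 CPM) and Mir701 (68.1 ± 1.12 CPM, SD, n = 2).

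**Figure D1:**
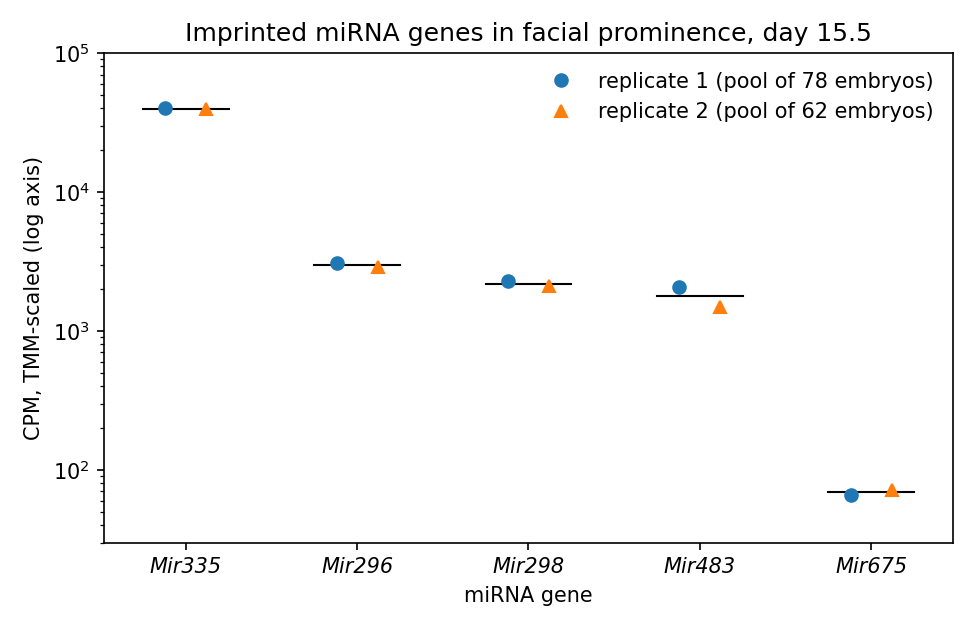
Level of each gene in CPM on a log axis, with replicate 1 as circles, replicate 2 as triangles and the mean of both as a line. Mir335 sits near 39738 CPM and Mir675 near 69.1 CPM, and the symbols are visibly apart only for Mir483, at 2079 and 1498 CPM.

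The 5 genes thus covered a wide range of levels. Mir335 exceeded Mir296 by 13.0-fold in replicate 1 and 13.5-fold in replicate 2, Mir483 by 19.3-fold and 26.2-fold, and Mir675 by 607-fold and 546-fold. The order of the mean levels was Mir335, Mir296, Mir298, Mir483 and Mir675. Divided by hairpin length, the mean levels were 405, 37.9, 26.7, 24.5 and 0.823 CPM per base in that order, so the order was the same per length. The sum was 46777 ± 1273 CPM, of which Mir335 made up 85.0% ± 0.983 of reads, and the other 4 genes together reached 7039 ± 651 CPM (SD, n = 2). Of the 5 means, 4 were above 180 CPM, the median over all detected genes, and that of Mir675 was below it.

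**Figure D2:**
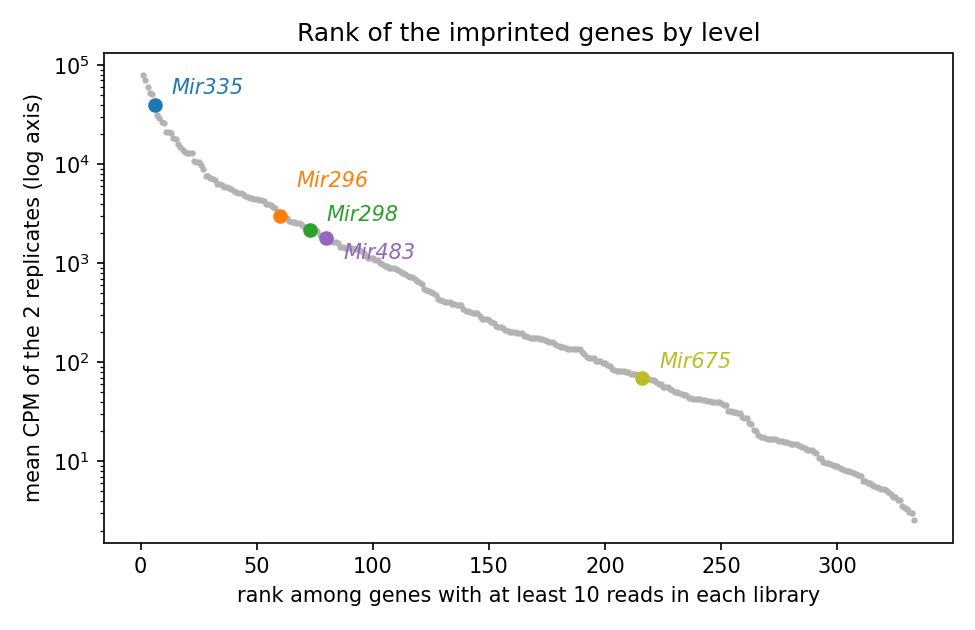
Mean CPM on a log axis against rank for the 333 genes with at least 10 reads in each library, in grey, with the 5 imprinted genes in colour. Mir335 is at rank 6, Mir296, Mir298 and Mir483 lie between ranks 60 and 80, and Mir675 is at rank 216.

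Nearly all reads of the 5 genes lay on the strand of the gene. Mir675, Mir483, Mir296 and Mir298 had 0 opposite-strand reads in both libraries, and Mir335 had 0 in replicate 1 and 3 in replicate 2. Over all counted genes, 96.7% of the reads that were assigned on 1 strand or the other lay on the gene strand in replicate 1 and 96.6% in replicate 2.

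The comparison that the design allows is of 1 pool with the other. Mir483 was lower in replicate 2, by 1.39-fold, and the other 4 genes differed by at most 1.09-fold. For each detected gene, the split of its reads between the libraries was set against their effective sizes by an exact binomial test, two-sided, and p-values were adjusted by Benjamini-Hochberg over the 333 genes. With 1 library on each side there is no estimate of replicate error, so a call compares these libraries and not populations. At an adjusted p under 0.05 the test called 53.5% of all detected genes, 25.8% toward replicate 2 and 27.6% toward replicate 1. These were 86 and 92 genes, against 49 and 160 with all library reads as denominator. Of the 5 imprinted genes, 4 were called, all higher in replicate 1. Since most genes were called, the sizes of the differences are given beside those of the other genes.

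For Mir483 the log2 ratio of replicate 2 over replicate 1 was −0.47 (95% interval −0.52 to −0.43, exact binomial adjusted p = 8.12e-87). Of the 333 detected genes, 63 had a larger log2 ratio in size, and 25 had a ratio further toward replicate 1. Among the 247 genes with at least 100 reads in each library, 27 had a larger one. The median size was 0.20 over all detected genes and 0.18 over those 247. Mir483 stayed within 1.5-fold, as did 297 of the 333 genes. Scaled to all reads of the library instead, its ratio was −0.65 (1.57-fold), outside that range, while the median over all detected genes was −0.19 and 276 of 333 genes lay within 1.5-fold.

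The other differences were small. Mir298 had a log2 ratio of −0.11 (−0.15 to −0.07, exact binomial adjusted p = 1.49e-06) and Mir296 one of −0.09 (−0.12 to −0.05, exact binomial adjusted p = 6.27e-06). Mir335 had a log2 ratio of −0.03 (−0.04 to −0.02, exact binomial adjusted p = 1.09e-09). The test takes reads as independent, and 298 of 333 genes differed more than Mir335. With DESeq2 size factors in place of TMM, Mir335 had a ratio of −0.00357 and was not called (exact binomial adjusted p = 0.608). Mir675 was not called (0.12, −0.12 to 0.37, exact binomial adjusted p = 0.455), and its interval allows a difference of up to 0.37 on the log2 scale. The median log2 ratio of the 5 genes was −0.09, beside −0.02 over all detected genes.

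**Figure D3:**
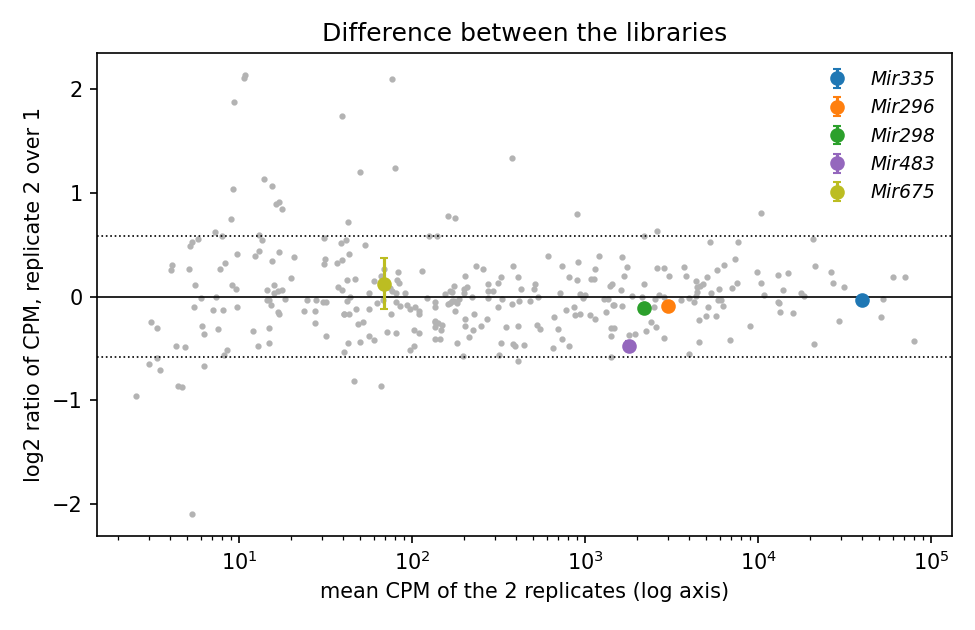
Log2 ratio of CPM, replicate 2 over replicate 1, against mean CPM on a log axis, for 333 detected genes in grey and the 5 imprinted genes in colour with 95% intervals for counting error. Dotted lines mark 1.5-fold; Mir483 at −0.47 lies furthest from 0 among the 5, and all 5 lie inside the lines.

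Within the Igf2 and H19 domain the balance moved between the libraries. Mir675 made up 3.09% of the reads of Mir675 and Mir483 together in replicate 1 (95% Clopper-Pearson interval 2.68 to 3.54) and 4.59% in replicate 2 (4.19 to 5.02). These intervals do not overlap, unlike those of Mir296 and Mir298, but they cover counting error alone. Mir483 was lower in replicate 2 (log2 ratio −0.47), while Mir675 was not called. No pair outside the 5 genes was compared in this way, and 53.5% of all detected genes were called between the libraries. The share of Mir675 was chosen after the values were seen, and with 1 library on each side the difference has no replicate check.

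The genes closest in level to Mir483 included some with a like difference between libraries. Mir299b had 2019 and 1566 CPM in replicates 1 and 2, a log2 ratio of −0.37, and shares a stretch of 20 bases with another gene. Mir455, a cartilage miRNA in the collagen gene Col27a1, had 2187 and 1706 CPM (−0.36), whereas Mir467e had 1689 and 1590 CPM (−0.09). Among marker lists, the summed level of skeletal muscle genes differed by a log2 ratio of −0.41 (7941 and 5967 CPM). Nearly all of it was Mir206 (7861 and 5896 CPM), with 2 of the 5 counted genes detected and 3 at the floor. A stretch of 20 bases is shared with another miRNA gene by 4 of the 5, so their counts are uncertain. The sum of 7 epithelial genes differed by −0.24, but the median ratio of the single genes was 0.10, with 4 called toward replicate 2 and 3 toward replicate 1. The sum of 4 mesenchymal genes differed by −0.13, with a median ratio of 0.24, 2 genes called toward replicate 2 and 1 toward replicate 1. The other sums differed by −0.09 for 2 cartilage genes, 0.15 for 3 vessel genes, −0.26 for brain and 0.12 for blood. Single detected genes went both ways in vessel (−0.21 to 0.23), brain (−0.58 to 0.08) and blood (−0.86 to 0.58). The pancreas and endocrine sum went from 1806 to 2699 CPM (0.58), and Mir122 of liver from 30.4 to 70.0 CPM (1.20). The part of these markers in the difference of Mir483 was not tested.

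Set beside other imprinted miRNA genes, Mir335 was higher than any single gene of the larger lists. For the Dlk1-Dio3 locus, the large cluster on chromosome 12, 54 genes had been listed and 47 of them were counted. The list may not hold every gene of the locus. Its highest member was Mir411 at 13107 ± 363 CPM (SD, n = 2). Mir335 alone equalled 55.3% of the summed level of that list in replicate 1 and 57.6% in replicate 2. Of these 47 genes, 41 were detected. The test called 20 of them toward replicate 1 and 3 toward replicate 2, and 18 did not pass, with −0.10 as the median log2 ratio. Their median level over detected genes was 406 CPM, beside 2188 CPM for the 5 genes outside the locus.

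The 16 counted genes of the list within Sfmbt2, a gene expressed from the paternal copy in placenta, summed to 4907 ± 165 CPM (SD, n = 2), with 6 detected and 9 at the floor. Mir467d was the highest, at 1863 ± 2.88 CPM (SD, n = 2), close to Mir483. A shared stretch of 20 bases was found for 15 of the 16, so their counts are uncertain. Of the 6 detected genes, 2 were called toward replicate 2 and 1 toward replicate 1, and 3 did not pass. All 16 lie in an intron of Sfmbt2 in the annotation.

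Mir335 and Mir483 were also set beside 36 counted miRNA genes chosen as lying in coding genes that are not known to be imprinted. The annotation placed 30 of these in introns, 5 over exons and 1 outside a coding gene. The list may not hold every such gene. Their median level was 482 CPM over the 35 detected genes, and 1 of them, Mirlet7g at 52439 ± 666 CPM (SD, n = 2), was above Mir335. Over all detected genes, 5 were above Mir335. Mir26b (26922 ± 1754 CPM) and Mir126a (26285 ± 3011 CPM, SD, n = 2) came next within the list. Of the 35 genes, 11 were called toward replicate 2 and 14 toward replicate 1, and 10 did not pass, with −0.05 as the median log2 ratio.

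**Figure D4:**
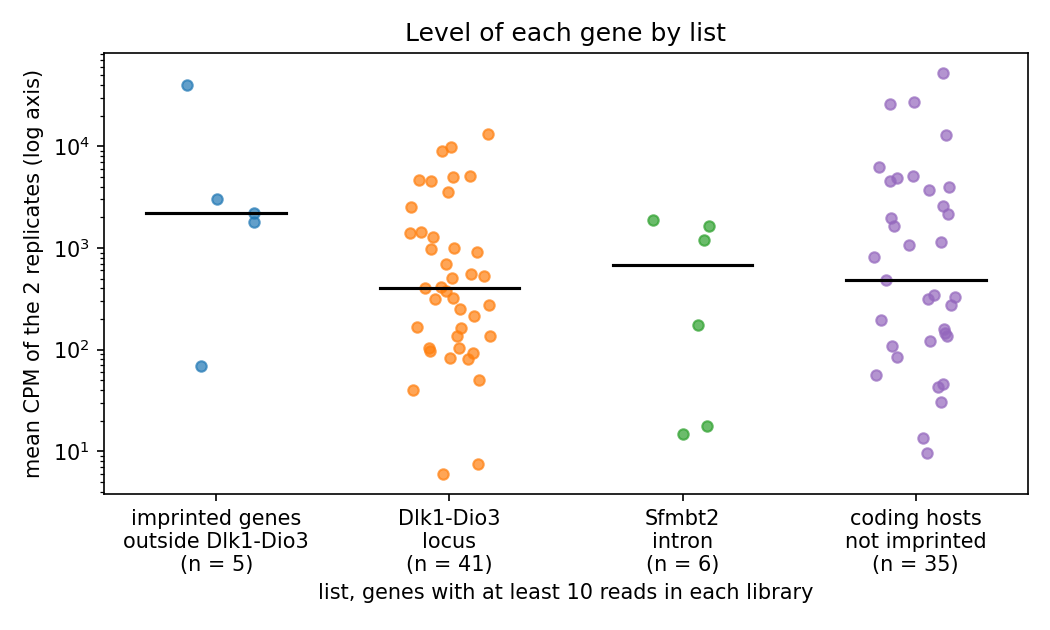
Mean CPM on a log axis for each detected gene of 4 lists, each point a gene and each line the median of its list; side-to-side position within a list carries no value. The 5 genes outside Dlk1-Dio3 run from 69.1 to 39738 CPM, and no gene of the Dlk1-Dio3 or Sfmbt2 lists reaches Mir335.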

How the data were processed

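MicroRNA sequencing libraries from 2 pools of tissue were used. Raw counts of reads for each miRNA gene were deposited on mm10 with GENCODE M4, per the file list deposited with each sample, with 3 columns for either strand, the gene strand and the opposite strand. Multiply mapped reads were given to no gene. No source used here names the aligner or the counter. Lines that name no gene held 49.0% and 54.5% of the reads of replicates 1 and 2 and stayed out of library sizes and tests.

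Counts on either strand were used. Symbols and positions came from GENCODE M21 on the same build, and 1894 of 1973 identifiers had a symbol. TMM factors (edgeR 4.0.16, R 4.3.3) were set on genes with at least 10 reads in each library. Exact binomial tests and Clopper-Pearson intervals (95%) used scipy 1.17.1 in Python 3.11.15, with pandas 2.3.3, and figures matplotlib 3.10.9. The test was checked on simulated data. A replicate test such as edgeR's quasi-likelihood test cannot be fitted with 1 library on each side.

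Named genes were the 5 genes, the 3 detected genes nearest to each in log2 CPM, counted genes within 500 kb, genes sharing a seed, and up to 3 leading genes of each list. The genes and lists were chosen with earlier results of these data known. Alternatives were total-count scaling, DESeq2 1.42.0 size factors, gene-strand counts, minimum counts of 0 or 100 reads, the most abundant gene left out, all library reads as denominator, each replicate left out and, added after seeing the data, TMM factors from all genes.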

Additional observations from a re-analysis of the deposited data

How the results depend on the processing

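The order of the 5 mean levels and the directions of the 4 called genes held under every scaling, filter and strand setting tried. The call of Mir335 was lost with DESeq2 size factors (log2 ratio −0.00357, exact binomial adjusted p = 0.608). With reads on the gene strand only, Mir335 stood at 41107 CPM and the sum of the 5 genes at 48388 CPM, since the denominator is smaller. With Mir203, the most abundant gene, left out, Mir335, Mir296, Mir298 and Mir675 stood at 43153, 3251, 2376 and 75.1 CPM and the sum at 50797 CPM. Per 1000000 of all library reads, Mir335, Mir296, Mir298, Mir483 and Mir675 had 19188, 1447, 1058, 872 and 33.3. On that denominator the log2 ratio of Mir675 was −0.0539 in place of 0.12 and again not called, that of Mir483 was −0.65, and the median of all detected genes shifted by −0.17. With each replicate left out in turn, the level is that of the other library, so this setting restates the spread and is no check of it. Levels so ranged from 39298 to 40178 CPM for Mir335, 2903 to 3084 for Mir296, 2105 to 2270 for Mir298, 1498 to 2079 for Mir483, 66.2 to 72.0 for Mir675 and 45877 to 47677 for the sum. The number of genes called lay between 166 and 186 under the scaling, filter, strand and left-out-gene settings, against 178, and was 209 with all library reads as denominator (49 toward replicate 2 and 160 toward replicate 1), a count added after seeing the data. Depth limits Mir675 most, with 198 reads in replicate 1. No paired analysis was possible because there is a single group, whose replicate numbers pair no samples across groups.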
